A study of Drosophila melanogaster with 6 samples.

Results

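A set of 175 Drosophila genes that carry no name beyond an annotation number (CG followed by digits) read higher in flies fed lithocholic acid (LCA) than in control flies. The genes were chosen by their values: 1 probe set stood for each gene, the one with the highest mean over 6 arrays, every LCA array had to lie above every control array, and the mean log2 signals of the diets had to differ by an amount equal to 1.5-fold or more. Among 11982 genes with 1 symbol on the array, 5209 had a CG symbol, and 175 of them met the rule. All 175 had a higher LCA signal because the rule asked for it, so their differences between diets are described here and not tested.

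Transcripts were measured on Affymetrix arrays. Each array carried biotin-labelled RNA of 10 pooled whole males of the W1118 stock, a white-eyed laboratory strain that the labels call wild type. The labels give an age of 30 days for all flies. One group of 3 arrays came from flies that had spent 30 days on control food. The other 3 arrays came from flies that had spent the same time on food with LCA at 50 µmol/l, a bile acid that gut bacteria of vertebrates produce. Whether pools on the same food were reared in separate cultures is not stated in the labels, so spreads cover these pools and may be partly technical. Values are the deposited log2 signals, which carry no detection call, and a signal depends on the probes as well as on the amount of RNA, so levels of different genes are compared here only as signal ranks.

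A CG number is an identifier that annotation of the fly genome gives to a predicted gene, and it serves as the symbol until a study of function supplies a name. Some genes of the set have an older CG number that was replaced, such as CG9803 for CG30416. Many such genes are transcribed in the testis, where spermatocytes switch on a large set of genes that most other tissues do not use and store much of that RNA for the spermatids to translate later. A whole male fly contributes testis RNA along with that of every other organ, and in whole flies a change in how much tissue there is cannot be told apart from a change in RNA per cell.

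Control replicate 1 lay at the end of a spread among the control arrays. On the first principal component over all genes, which held 57.3% of the variance, it lay at −39.2, while control replicates 2 and 3 lay at −14.2 and 11.05 and the LCA arrays between 6.62 and 20.1. Control replicate 3 thus lay inside the range of the LCA arrays, and control replicate 2 lay about midway between the other control arrays. Signals of control replicate 1 correlated at 0.9935 with control replicate 2 and at 0.9838 with control replicate 3. Those of control replicates 2 and 3 correlated at 0.9925. Array medians over all genes ran from 7.34 to 7.38 in control arrays and from 7.41 to 7.42 in LCA arrays. limma found 0 of 11982 genes (0%) under an adjusted p of 0.05, with a lowest adjusted p of 0.0750. At an unadjusted p under 0.05 limma counted 2169 genes, 998 higher and 1171 lower in LCA flies, a split that became 666 and 1585 when each array was centred on its median. None of the 175 genes therefore passed a test over all genes.

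The rule took in 3.36% of CG genes, against 1.27% of the 6773 genes with a name, where 86 genes met it, and 2.18% of all genes. In the other direction the mirrored rule took in 112 CG genes (2.15%), 110 genes with a name (1.62%) and 1.85% of all genes. Groups that did not overlap, with LCA higher by any amount, occurred in 620 CG genes (11.9%) and in 1341 of all genes (11.2%). The share of CG genes whose groups were apart was thus near that of all genes, and the 175 differ from the other 445 in the size of the difference, which the rule fixed. A further 192 CG genes were at least 1.5-fold higher on average but had overlapping groups.

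The differences were small and alike. Their median was 0.68 on the log2 scale (1.60-fold), the quartiles were 0.64 and 0.73, and the largest was 0.93 (1.90-fold). Over all 5209 CG genes the median difference was 0.03, and over all 11982 genes it was −0.00159. Under 0.65 lay 56 of the genes, between 0.65 and 0.8 lay 107, and 12 were above 0.8. No gene of the set differed by 2-fold or more.

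The 3 largest differences were among the 10 that stayed at 1.5-fold or more without control replicate 1, and of these 3 CG30284 alone had its widest step just above that array. CG30284 read 5.69, 6.36 and 6.93 in control replicates 1 to 3 and 7.06, 7.19 and 7.50 in LCA replicates 1 to 3. Its lowest LCA array was 0.13 above its highest control array, while the control arrays themselves spanned 1.25. The mean difference was 0.93 ± 0.30 (limma's moderated SE, 3 arrays per diet), and 0.61 without control replicate 1. CG13337 read 7.54, 7.86 and 8.12 in control and 8.38, 8.65 and 9.13 in LCA arrays, a difference of 0.88 ± 0.23 (SE) that was 0.73 without control replicate 1. For this gene the widest step set LCA replicate 3 above the rest. CG30416 read 6.90, 7.25 and 7.86 in control arrays, then 8.05, 8.09 and 8.49 in LCA arrays, with a difference of 0.87 ± 0.25 (SE), or 0.65 without control replicate 1.

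Other large differences included genes with higher signals. CG31538 read 10.44, 10.97 and 11.66 in control and 11.80, 11.79 and 12.06 in LCA arrays (difference 0.86 ± 0.29, SE). CG44433 read 7.94, 8.77 and 9.13 in control and 9.35, 9.43 and 9.59 in LCA arrays (0.84 ± 0.29). In both, control replicate 1 was the lowest array and control replicate 3 came close to the LCA arrays. CG32628, CG7886, CG30324, CG12983 and CG8851 completed the 10 largest, with differences of 0.83, 0.82, 0.82, 0.81 and 0.81. Without control replicate 1 these 5 had differences of 0.62, 0.55, 0.48, 0.52 and 0.51. CG32628 is the single gene of the set that was kept under the platform's symbol because the gene table used for names did not list its identifier.

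**Figure D1:**
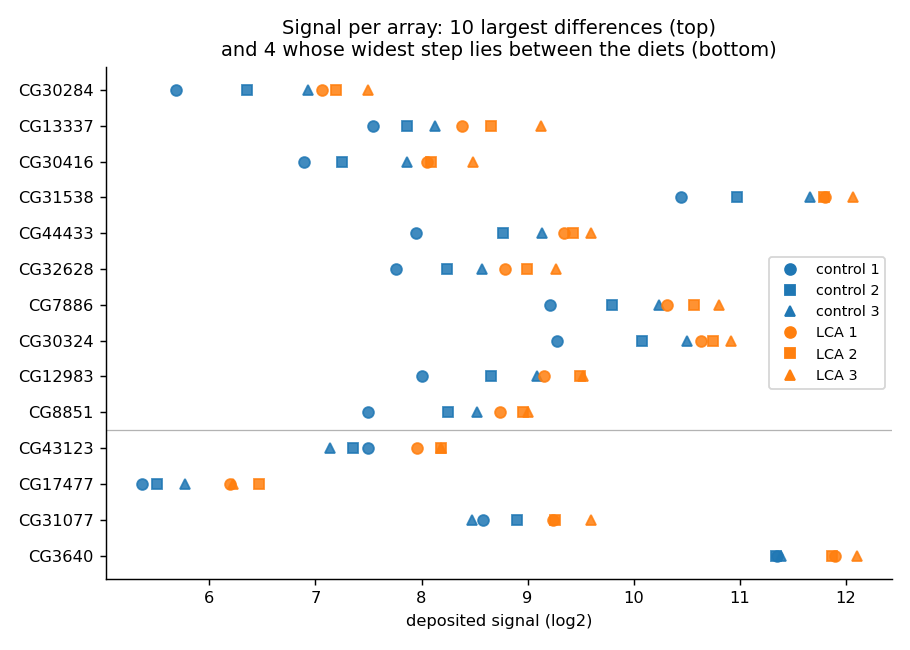
Deposited log2 signal (x axis) of 14 genes (y axis) in each array, blue for control and orange for LCA, with circle, square and triangle for replicates 1, 2 and 3. In the 10 genes with the largest difference (above the line) control replicate 1 is the lowest array. In the 4 genes below the line the widest step lies between the diets, and the control arrays span from 0.05 (CG3640) to 0.42 (CG31077).

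Control replicate 1 set much of the difference in most of the genes. It was the lowest control array in 169 of the 175 genes, against 2112 of all 5209 CG genes. In the 169 it was also the lowest of all 6 arrays, because the rule set every control array below the LCA arrays. The median distance from control replicate 1 up to the next control array was 0.69, about the size of the difference between diets. In 143 genes the widest step between neighbouring arrays, when the 6 were put in order of signal, separated control replicate 1 from the other 5. In 4 genes it separated the diets, in another 4 it set LCA replicate 3 above the rest, and in the remaining 24 it lay elsewhere. Among all 5209 CG genes the widest step set control replicate 1 below the rest in 1112. It separated the diets, in either direction, in 231 of them. The highest control array was control replicate 3 in 171 genes, and the lowest LCA array was LCA replicate 1 in 157.

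The gap between the diets was narrow. The lowest LCA array exceeded the highest control array by a median of 0.07, by under 0.1 in 121 genes and by more than 0.3 in 5. Control replicate 3 was closer to the LCA mean than to control replicate 1 in 168 genes. The spread among control arrays was wider than the spread among LCA arrays in 171 genes, with a median SD of 0.54 against 0.15 (n = 3 each). Over all 5209 CG genes the control spread was the wider in 3538, and the corresponding medians were 0.17 and 0.11. In 164 of the 175 genes the control arrays spanned more than the difference between the diet means, as they did in 4139 of all 5209 CG genes.

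**Figure D2:**
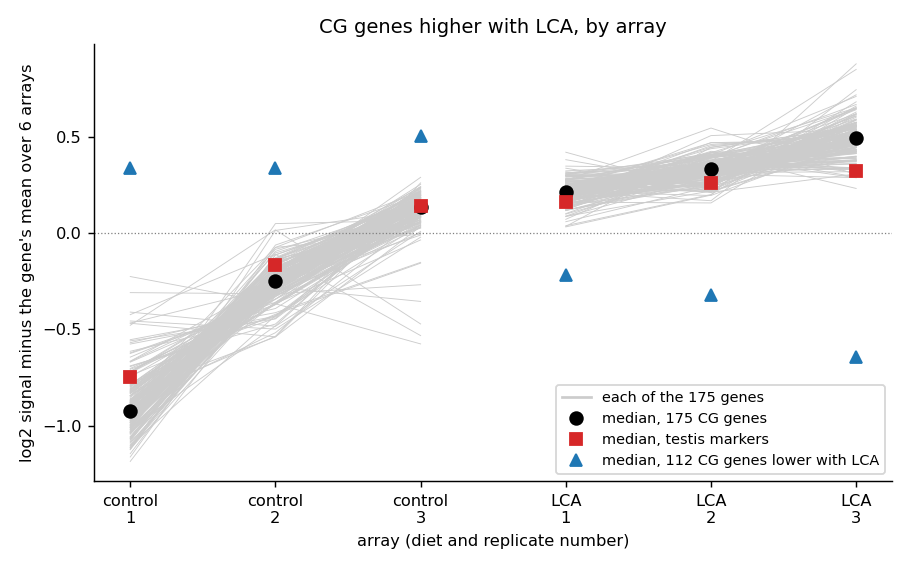
Log2 signal minus the gene's own mean over 6 arrays (y axis) in each array (x axis), with a grey line per gene within each diet and symbols for medians. The median of the 175 genes lies at −0.92 in control replicate 1 and between 0.21 and 0.49 in the LCA arrays, the testis markers take the same course, and the CG genes lower with LCA lie at 0.34, 0.33 and 0.50 in the control arrays.

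Leaving control replicate 1 out lowered the median difference from 0.68 to 0.40 and left 10 of the 175 genes at 1.5-fold or more. A median of 58.0% of a gene's difference remained, with a range from 38.8% to 110%. The counts that stayed at 1.5-fold or more were 164 without control replicate 2, 174 without control replicate 3, and 174, 168 and 120 without LCA replicates 1, 2 and 3. Applied afresh to the 5 remaining arrays, the rule selected 23 CG genes without control replicate 1, 10 of them from the 175, and 943 without control replicate 3. With control replicate 1 present and control replicate 3 absent, many more CG genes therefore met the rule.

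CG genes lower with LCA by the mirrored rule had another array pattern. Their median difference was −0.78 with all arrays and −0.80 without control replicate 1. The median control SD of these 112 genes was 0.18, and in 52 of them the widest step lay between the diets. The 86 genes with a name that met the same rule as the 175 had a median difference of 0.66, and 0.43 without control replicate 1, which was their lowest array in 80 of 86. These side-by-side values were not tested, since all 3 sets were chosen on the same contrast and share the arrays.

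**Figure D3:**
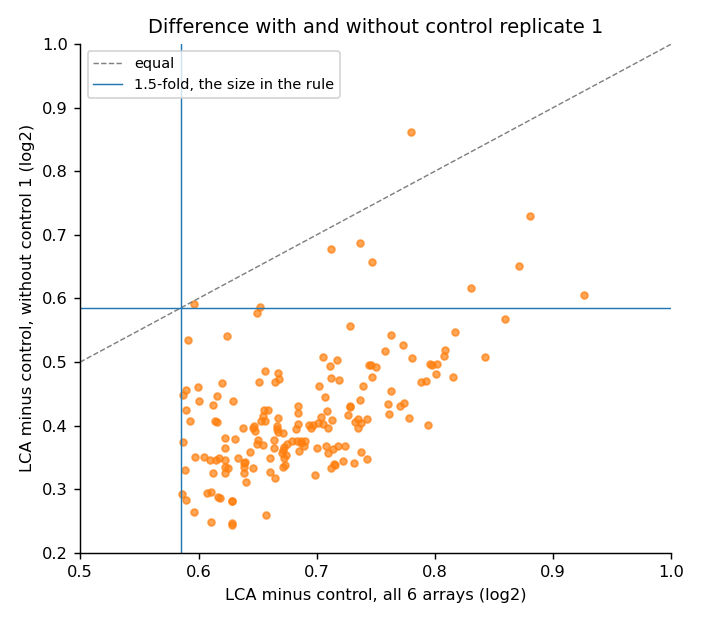
LCA minus control difference of each of the 175 genes on the log2 scale with all 6 arrays (x axis) and without control replicate 1 (y axis). The dashed line marks equal values and the blue lines mark 1.5-fold. Of the 175 points, 10 lie at or above the horizontal line, and the median falls from 0.68 to 0.40.

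The genes whose difference fell most without control replicate 1 were CG32462, CG9316, CG12860, CG14402 and CG14262. CG32462 read 6.88, 8.02 and 8.13 in control and 8.20, 8.43 and 8.38 in LCA arrays, and its difference went from 0.66 to 0.26. CG9316, for which the gene table lists the older name FBXL10, read 5.22, 6.27 and 6.55 in control and 6.71, 6.74 and 6.82 in LCA arrays, a difference of 0.74 that became 0.35. In both genes 1 low pool stood more than 1 log2 unit under all the others. CG12860 went from 0.79 to 0.40, CG14402 from 0.73 to 0.34 and CG14262 from 0.63 to 0.24.

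A few genes of the set had their widest step between the diets, as had 231 of all 5209 CG genes in either direction. CG43123 read 7.49, 7.35 and 7.14 in control and 7.96, 8.19 and 8.18 in LCA arrays, with a gap of 0.46 between the groups, and its difference rose from 0.78 to 0.86 when control replicate 1 was left out. CG3640 read 11.35, 11.34 and 11.39 in control and 11.90, 11.87 and 12.10 in LCA arrays, with differences of 0.60 and 0.59 with and without that array. Its control SD of 0.03 was the smallest in the set, and its gap of 0.48 the widest. CG31077 read 8.58, 8.90 and 8.47 in control and 9.24, 9.25 and 9.59 in LCA arrays (difference 0.71, and 0.68 without control replicate 1). Control replicate 1 lay between the other control arrays in CG3640 and CG31077 and was the highest control array in CG43123.

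CG17477 was the fourth gene whose widest step lay between the diets, and it is named here after its values were seen. The gene table gives it the older names SP174 and SPH174, of the series used for serine proteases and their inactive homologues. It read 5.37, 5.51 and 5.77 in control and 6.19, 6.46 and 6.22 in LCA arrays (difference 0.75, and 0.66 without control replicate 1). CG10700 and CG1428 were the other genes whose difference fell least. CG10700 had the lowest signal of the set, at 3.56, 3.75 and 3.67 in control and 4.06, 4.23 and 4.91 in LCA arrays. LCA replicate 3 stood above the rest there, and its difference was 0.74, or 0.69 without control replicate 1. CG1428 had differences of 0.59 and 0.53. The 10 genes that stayed at 1.5-fold or more without control replicate 1 were CG30284, CG13337, CG30416, CG32628, CG43123, CG17477, CG10700, CG31077, CG3640 and CG15876, the last also named after its values were seen.

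Signals of the set were higher than those of CG genes in general, which is a description with no test. Its median signal over the 6 arrays was 8.60, where that of all CG genes was 7.08 and that of all genes 7.40. Of the 175 genes, 32 (18.3%) lay under the median signal of all genes, against 55.3% of all CG genes, and 80 (45.7%) lay above its upper quartile, against 20.7%. When all genes were divided by signal into 10 groups of equal size, 0 of 605 CG genes in the dimmest group belonged to the set, 24 of 505 (4.75%) in group 6 and 31 of 341 (9.09%) in the brightest.

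**Figure D4:**
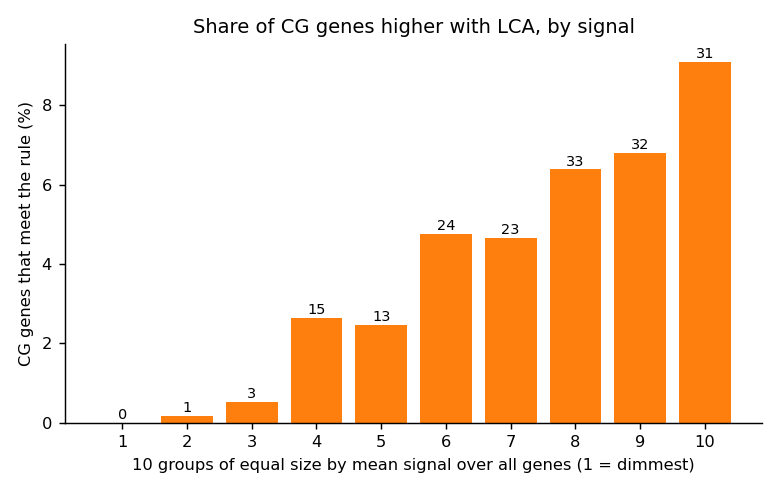
Share of CG genes that met the rule (y axis, %) in each of 10 groups of equal size by mean signal over all genes (x axis, 1 is the dimmest), with the number of genes above each bar. The share is 0% in the dimmest group and 9.09% in the brightest, where 31 genes met the rule.

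The brightest genes of the set were CG3906, CG4836, CG8701, CG33340, CG17377, CG12861, CG31639 and CG5089, with mean signals from 12.6 down to 11.8. CG3906 read 12.11, 12.61 and 12.12 in control and 13.01, 12.80 and 12.90 in LCA arrays, a difference of 0.62 that was 0.54 without control replicate 1. Here control replicates 1 and 3 lay together and control replicate 2 was the nearest to the LCA arrays. CG4836 read 11.34, 12.29 and 12.66 in control and 12.70, 12.86 and 12.88 in LCA arrays, so that only control replicate 1 lay well under the rest. Its difference was 0.72, and 0.34 without that array. In the other 6 the differences ran from 0.60 to 0.74 with all arrays, and control replicate 1 was the lowest array in each. CG17377 had a gap of only 0.00260 between its highest control and its lowest LCA array.

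At the edge of the rule the values of genes inside and outside it were close. CG16781, CG31213, CG34175 and CG11106 were the last inside, with differences of 0.589, 0.587, 0.587 and 0.586. CG32379, CG11977, CG33259 and CG12917 were the first outside among CG genes with separate groups, at 0.584, 0.581, 0.581 and 0.579. CG11977 read 7.68, 7.56 and 7.71 in control and 8.20, 8.26 and 8.23 in LCA arrays, with a control SD of 0.08. CG11106 read 9.81, 10.52 and 10.85 in control and 10.88, 11.02 and 11.04 in LCA arrays, with a control SD of 0.54. The threshold thus admitted a gene whose control pools were spread widely and left out one whose pools were close together.

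Where a second probe set existed for the same gene, on the same arrays, it was close to the chosen one in some genes and not in others. Of the 175 genes, 167 had 1 probe set and 8 had a second, which was the dimmer by the rule. The second probe set was higher in LCA flies in 5 of 8, with separate groups in 2. Of all genes, 49.7% were higher and 11.2% had separate groups with LCA higher, and 8 probe sets are too few to set against these shares. The median difference was 0.22 for the second probe sets and 0.69 for the chosen ones. Agreement was closest for CG13008 (0.57 against 0.63), CG4270 (0.63 against 0.71) and CG8851 (0.56 against 0.81), whose second probe sets had mean signals of 8.67, 8.66 and 7.54. The second probe set of CG17377 differed by 0.17 at a mean signal of 4.70. Disagreement was widest for CG11227 (−0.11 against 0.76), CG42266 (−0.03 against 0.67) and CG32643 (−0.02 against 0.65), whose second probe sets had mean signals of 4.90, 5.13 and 3.59. That of CG12983 differed by 0.27 against 0.81.

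The older names of these genes in the RefSeq gene table, which the rule did not use, often included a testis cDNA clone. The Berkeley fly genome project named its cDNA clones for the library they came from, with AT for adult testis, GH, RH and HL for head and LD and RE for embryo, and a separate testis library has clone names that begin with bs. These library meanings are background knowledge and are not in the files, and the shares that follow rest on them. Of 174 genes of the set found in the table, 41 (23.6%) had a testis clone among their names, 10 (5.75%) a head clone and 0 an embryo clone. Over all 5137 CG genes found there, 237 (4.61%) had a testis clone, 220 (4.28%) a head clone and 201 (3.91%) an embryo clone. Among the 47 genes of the set with a clone from any of 6 kinds of source, 41 (87.2%) had one from testis and 35 (74.5%) from testis alone. The corresponding share with a testis clone over all CG genes with any clone was 32.8%.

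**Figure D5:**
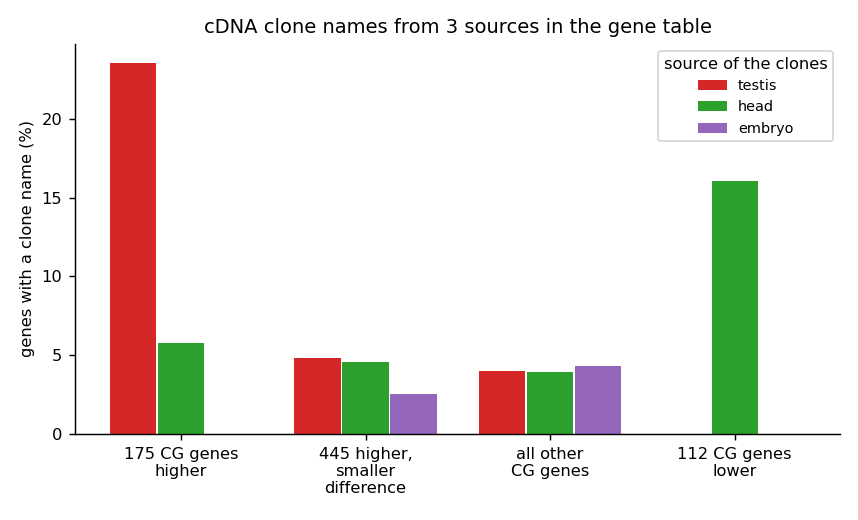
Share of genes (y axis, %) with a testis, head or embryo cDNA clone among their names in the gene table, for 4 sets of CG genes (x axis). Testis clones were found for 23.6% of the 175 genes, for 3.97% of all other CG genes and for 0% of the 112 CG genes lower with LCA.

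The testis share fell off outside the set. It was 4.79% in the 445 CG genes with separate groups but a smaller difference, and 0 of 112 in the CG genes lower with LCA, of which 18 (16.1%) had a head clone. Among CG genes above the median signal with the set left out, 7.08% had a testis clone. Of the 86 genes with a name that met the rule, 11 of the 85 found in the table (12.9%) had one. Whether clone naming favoured bright genes was not tested beyond the comparison among genes above the median. Genes of the set with testis clones included CG30284, CG30416, CG31538, CG12983 and CG12860 among those with large differences, and CG4836, CG33340 and CG31639 among the brightest.

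Genes of the set with and without a testis clone had similar values on the arrays. Both groups were chosen by the same rule on these arrays, so this likeness follows in part from the rule. It does not tell whether the genes without a testis clone are transcribed in the testis. The 41 with one had a median difference of 0.70, and 0.40 without control replicate 1, which was the lowest control array in 40. The 134 without one had a median of 0.67, and 0.40 without control replicate 1, which was the lowest in 129. Relative to each gene's own mean, the medians in control replicates 1 to 3 were −0.95, −0.25 and 0.16 with a clone and −0.91, −0.25 and 0.13 without. In LCA replicates 1 to 3 they were 0.22, 0.34 and 0.49 with a clone and 0.21, 0.32 and 0.49 without.

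CG genes outside the set that had a testis clone took a similar course. These 196 genes had medians of −0.81, −0.17 and 0.24 in control replicates 1 to 3 and 0.13, 0.26 and 0.31 in LCA replicates 1 to 3, relative to each gene's mean. Their median difference was 0.49, with 185 of 196 (94.4%) higher in LCA flies, against 2680 of the 5034 CG genes outside the set (53.2%). In 21 (10.7%) the groups were separate with LCA higher, against 445 of those 5034 (8.84%). Control replicate 3 lay above LCA replicate 1 in their medians. Of all 237 CG genes with a testis clone, the 41 that met the rule are left out of these 196. Their smaller difference and fewer separate groups therefore follow in part from the rule, and do not describe CG genes with a testis clone as a whole. The 201 CG genes outside the set with a head clone and no testis clone had a median difference of −0.07, with 79 of them higher.

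Testis markers moved with the set. Of 43 listed testis genes 36 were measured, and 35 (97.2%) were higher in LCA flies, against 49.7% of all genes. The groups were separate in 15 (41.7%), against 11.2% of all genes, and 10 (27.8%) would have met the rule had they lacked names, against 2.18%. Their medians were −0.75, −0.16 and 0.14 in control replicates 1 to 3 and 0.16, 0.26 and 0.32 in LCA replicates 1 to 3, relative to each gene's mean. The difference between diets of these array medians was 0.51 (exact permutation test, two-sided, p = 0.1, the lowest value this number of arrays can give), and 0.26 without control replicate 1. It was 0.49 after quantile normalization and 0.46 after median centring, each with an exact permutation p of 0.2. The log2 of the markers' summed linear signals ran from 15.02 to 16.05 in control and from 16.05 to 16.25 in LCA arrays, and the highest control array reached the lowest LCA array. bam, the switch gene of germ cell differentiation, had the lowest marker signal, 4.09 in control and 3.71 in LCA flies. The part of testis RNA in the differences of the 175 genes was not tested.

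Genes of the sperm tail and nucleus had larger differences than early germ cell genes, in an untested split of the list made after the values were seen. Mst98Ca, a structural protein of the sperm tail family, read 11.6 in control and 12.3 in LCA flies, a difference of 0.76, or 0.43 without control replicate 1. The 10 such genes had a median difference of 0.62, and 10 genes of early germ cells and of the meiotic transcription programme one of 0.30. The first group was far brighter, with a log2 of summed linear signals of 14.1 against 9.23 in control replicate 1. Whether signal level set the contrast was not tested. The split left out other listed genes, among them achi, vis and twe, which differed by 0.03, 0.18 and 0.02. Within the second group can, a testis-specific TBP-associated factor, differed by 0.25 and topi, a zinc finger protein of the meiotic arrest complex, by 0.40.

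Relative to the testis marker median of the same array, an alternative chosen after seeing the data, the 175 genes had a median difference of 0.17, with a range from 0.08 to 0.42. The subtraction lowered every gene's difference by the same 0.51, from starting values between 0.59 and 0.93. That all 175 remained higher on average and 0 met the rule was therefore fixed by arithmetic. The same holds for CG30284, which kept the largest difference, at 0.42. Separate groups were not fixed in this way, and 79 genes kept them. All 175 had them beforehand because the rule asked for it. The share of all genes with separate groups after the subtraction was not computed, so the 79 cannot be set against it.

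Other marker lists took other courses, and their counts stand beside the 5951 of 11982 genes (49.7%) that were higher over the whole array. Accessory gland markers had a median difference of 0.23 with 16 of 16 higher, photoreceptor markers 0.41 with 11 of 11 higher and neuron markers 0.28 with 11 of 11 higher. The groups were separate in 8, 9 and 2 genes of these lists, against 11.2% of all genes. In none of these 3 lists was control replicate 1 the lowest array in the medians. Fat body and haemocyte markers had medians of −0.32 and −0.32, with 2 of 12 and 2 of 14 higher, and muscle markers −0.01. Midgut markers had a median of 0.03. Control probe sets for RNA integrity averaged a log2 difference between 3′ and 5′ ends of 2.97 to 3.43 in control and 3.45 to 3.61 in LCA arrays (exact two-sided permutation p = 0.1). Of the 5 pairs behind this mean, the first actin pair separated the diets and the other 4 did not (exact two-sided permutation p from 0.2 to 0.7). Control replicate 2, not replicate 1, had the lowest value of that measure.

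A few of the 175 genes have names in the table that place them in a protein family. CG42383 is also listed as p47 NSFL1, after a cofactor of the p97 ATPase, and read 7.75, 8.51 and 8.92 in control and 9.06, 9.14 and 9.37 in LCA arrays (difference 0.79, and 0.47 without control replicate 1). CG7794, listed as Tub1B in the manner of tubulins, had a difference of 0.74, or 0.36 without control replicate 1. CG6661, listed as PUT2, a yeast name for an enzyme of proline breakdown, differed by 0.69, or 0.38 without control replicate 1. For CG15450, listed as GPAT in the manner of glycerol-3-phosphate acyltransferases, the values were 0.67 and 0.48. CG6873, listed as adf, a name of the actin-depolymerising factors, differed by 0.61, or 0.29 without control replicate 1. These 5 genes were named after their values were seen, and in each of them control replicate 1 was the lowest array.

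Some of the 175 genes were neighbours. Among protein-coding genes in table order, 9 adjacent pairs joined 17 of the 175 genes (9.71%). The share was 13.4% for the 112 CG genes lower with LCA and 9.30% for the 86 named genes. Such a share depends on the size of the set, and none was computed for random sets or all CG genes. Whether the 175 lie together more often than other genes is therefore not known. CG1394, CG15200 and CG11106 formed a run of 3, with differences of 0.73, 0.66 and 0.59. CG12861 and CG12860 were neighbours with signals of 12.03 and 11.28 and differences of 0.67 and 0.79, and CG3213 and CG8851 had differences of 0.71 and 0.81. CG30416 and CG9861 differed by 0.87 and 0.65. CG31404 and CG31245, which the table lists under 1 shared older number, differed by 0.66 and 0.67. None of the 9 pairs had overlapping spans in the table. Of 174 genes found there, 79 overlapped some other gene, and the share over all genes was not computed. Probe positions were not used here, so a share of signal from an overlapping gene was not tested.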

How the data were processed

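The deposited table held 18952 probe sets in 6 columns, with log2 signals between 2.32 and 14.6 that the authors deposited. Per the labels' protocols, total RNA of whole flies was labelled in 1 cycle of amplification. Summarization, background correction and normalization are not given in the sources used here. Array medians over all genes lay between 7.34 and 7.42, with every LCA array above every control array. Depth does not apply to arrays, and their number limits the precision. After 183 array controls were left out, 13647 of 18769 probe sets had 1 symbol (13544 in the RefSeq table of assembly Release 6 plus ISO1 MT, used for names and neighbours, and 103 kept as the platform names them), 4720 had none here and 402 several. limma 3.58.1 in R 4.3.3 fitted LCA against control over all genes, with Benjamini-Hochberg adjustment, and was tested on simulated data. The members, marker lists and alternatives were chosen with earlier results of these data known. Named genes were those with the largest differences, the highest signals, the greatest and least dependence on control replicate 1, the nearest to the threshold, those with 2 probe sets and neighbours. A planned comparison of proteins was not made, because no sequences were used here. Replicate numbers were checked for pairing and treated as names.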

Additional observations from a re-analysis of the deposited data

How the results depend on the processing

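The count of 175 CG genes was 118 after quantile normalization, 114 of them from the 175, and 89 after median centring, all from the 175. It was 172 with probe sets of a gene averaged, 159 without probe sets whose identifier marks a possible match to more than 1 transcript, 143 among genes above the median signal and 228 at a difference of at least 0.5. At a difference of at least 1 it was 0. With 1 array left out it ran from 23 (without control replicate 1) to 943 (without control replicate 3), with 464 without LCA replicate 1. The number of members at 1.5-fold or more ran from 10 to 174 over the same arrays, and their median difference from 0.40 to 0.92. With the testis marker median of each array subtracted, an alternative added after seeing the data, both counts were 0 and the median was 0.17. That subtraction lowered every difference by the same 0.51, and the largest among all CG genes was 1.03, so both counts were fixed. All 175 stayed higher on average under quantile normalization and median centring, which moved the median difference of all genes by −0.02 and −0.05. Median centring moves every gene's difference by the same amount, so under it this outcome was fixed by the rule. limma's count over all genes was 0 under every alternative run except among genes above the median signal, where 5 passed, all lower in LCA flies. Its count at an unadjusted p under 0.05 ran from 1123 to 3881 with 1 array left out. Deviations of same-numbered arrays correlated at 0.31, −0.04 and 0.06. The first of these was the highest of all pairs of a control and an LCA array. LCA replicate 3 also correlated best with the control of its own number, while LCA replicate 2 correlated best with control replicate 3 (0.26). Deviations within 3 arrays constrain one another, so these values cannot decide whether replicate numbers pair the arrays. With the replicate number as a block (replicate block), limma counted 0 genes past the adjusted threshold and 2694 at an unadjusted p under 0.05. The cause of these changes was not tested. No detection calls were available, so which low signals exceed background is not known.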
